A study of Mus musculus with 8 samples.

Results

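The genes described here are 10 regulators of the G1 phase of the cell cycle: the D-type cyclins Ccnd1, Ccnd2 and Ccnd3, the E-type cyclins Ccne1 and Ccne2, the D-cyclin kinases Cdk4 and Cdk6, and the CDK inhibitors Cdkn1b, Cdkn2c and Cdkn2d. The list of symbols was drawn up with earlier results of these data known, and each gene had 1 row among the 22063 genes of the deposited table. All 10 were among the 10770 genes with enough counts to be tested. The study asked how tranilast, an anti-allergic small molecule derived from a tryptophan metabolite, acts on fatty liver disease, and its RNA sequencing compared 4 control libraries with 4 tranilast libraries. Both groups are labelled wild-type (WT) mouse liver, and the design text places both on a high-fat and high-cholesterol (HFHC) diet. The methods describe male C57BL/6J mice given tranilast or its sodium carboxymethylcellulose vehicle by oral gavage late in the feeding. The labels give no age, diet, dose or time for these libraries, and the study used more than a single tranilast dose. Nothing in the labels says whether the 4 libraries of a group came from separate animals, so every p-value measures only the spread between these libraries.

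A cell in G1 commits to copying its DNA when cyclin-dependent kinases phosphorylate the retinoblastoma protein and its relatives, which releases E2F transcription factors. D-type cyclins, whose genes answer to growth factors, activate CDK4 and CDK6 first, and E-type cyclins, whose genes are E2F targets, then activate CDK2. INK4 inhibitors such as the products of Cdkn2c (p18) and Cdkn2d (p19) bind CDK4 and CDK6, while the product of Cdkn1b (p27) mainly restrains cyclin E with CDK2. In the adult liver most hepatocytes rest outside the cycle, and cyclin D1 is known for its rise when the liver regenerates.

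The libraries held 12053036 to 15618787 estimated counts each, and 3 counts, the least taken as detection, corresponded to 0.196 to 0.240 CPM (counts scaled to the same library total). Their contents went against the tissue label. The 9 hepatocyte markers together made up 0.000199% to 0.000717% of the counts, and albumin (Alb) had 0 to 2 counts in a library. The 10 macrophage markers made up 0.931% to 0.985% of the counts in control and 0.959% to 1.012% in tranilast libraries, led by Lyz2 with 51267 to 68975 counts. Mertk (0 to 1), C1qb (0 to 6) and C1qa (0 to 11) were at or near 0, and the Kupffer cell markers Clec4f, Vsig4 and Timd4 were at 0 in all 8 libraries. No list of lymphocyte, neutrophil, endothelial or stellate cell markers had a gene above 15 counts. The part of cell makeup in the results below was not tested. In such bulk libraries fewer cells of a type and less RNA per cell cannot be told apart.

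Of the 10 genes, 7 fell with tranilast, 2 rose and 1 did not pass the test (edgeR quasi-likelihood test, Benjamini-Hochberg adjusted p under 0.05 over all tested genes). Both E-type cyclin genes rose, Ccne1 by 30.8% and Ccne2 by 34.7% in mean CPM. Both D-cyclin kinases, all 3 inhibitors and 2 of 3 D-type cyclins fell, from 14.7% for Cdk4 to 65.5% for Cdkn2d. Over all genes, 28.8% of tested genes fell and 28.2% rose, against 70% and 20% of the 10. The median log2 fold change of the 10 was -0.50, against 0.01 over all tested genes, and the median size of the change was 0.50 against 0.21. The same 7 genes were lower and the same 2 higher in every tranilast library than in every control library, where 25.2% and 24.5% of all tested genes separated that way. For each of these 9, the exact two-sided permutation test over the 8 libraries gave p = 0.0286, the smallest value that 4 against 4 allows. Scaling by library size alone moved the median log2 fold change of all genes up by 0.12 and the share of higher calls among all calls from 49.5% to 70.9%, but left the calls of the 10 as they were.

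**Figure D1:**
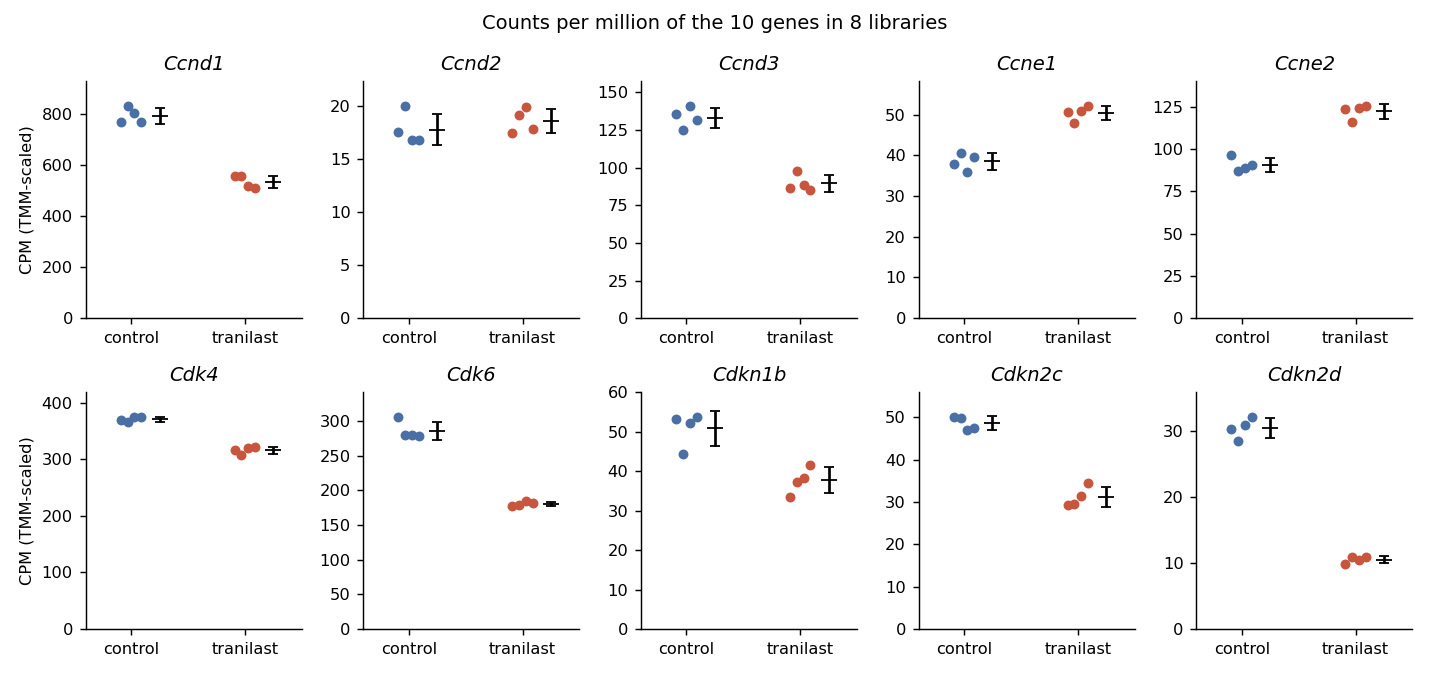
Levels in CPM (scaled by the trimmed mean of M values) of the 10 genes in each of the 8 libraries, with the vertical axis starting at 0. Points are libraries and bars are the mean and SD (n = 4 a group): 7 genes are lower and 2 are higher in all tranilast libraries, and the Ccnd2 points overlap.

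**Figure D2:**
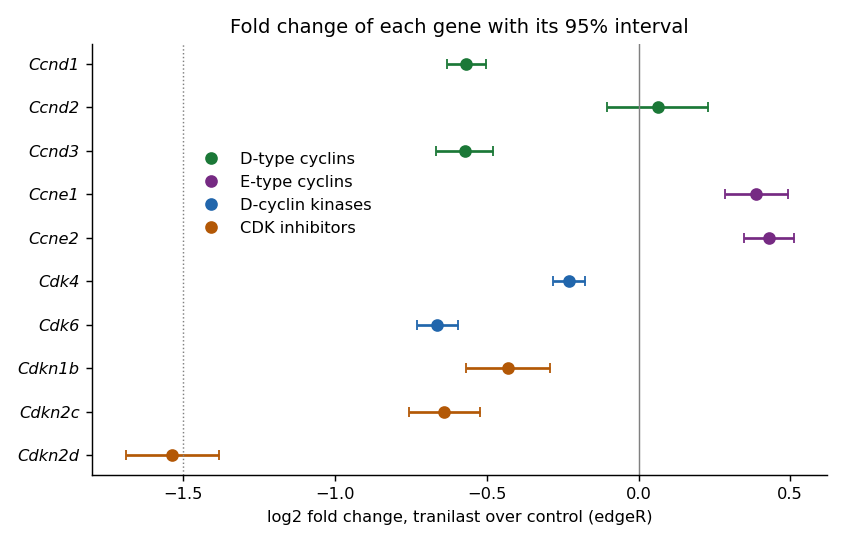
Fold change of each gene on the log2 scale, tranilast over control, with an approximate 95% interval derived from the edgeR test, coloured by role. The dotted line marks -1.5, the size of change the study's methods name as a threshold, which only the Cdkn2d estimate passes, at -1.54, with an interval from -1.69 to -1.38.

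Ccnd1 (ENSMUSG00000070348), on the minus strand at chr7:144929931-144939925 of GRCm38, encodes cyclin D1 and was the D-type cyclin with the highest level per length. It had 769, 830, 805 and 768 CPM in control replicates 1 to 4 and 556, 556, 517 and 512 CPM in tranilast replicates 1 to 4. The highest tranilast library thus lay well under the lowest control library. The group mean went down from 793 ± 29.9 to 535 ± 23.9 CPM (SD over 4 libraries), which the fit put at -0.57 ± 0.03 on the log2 scale (SE; edgeR adjusted p = 6.79e-11). Ccnd3 (ENSMUSG00000034165), on the plus strand at chr17:47505051-47599691, encodes cyclin D3. It had 135, 125, 141 and 132 CPM in control and 86.7, 97.8, 88.8 and 85.0 CPM in tranilast libraries. Its groups did not overlap, and its log2 fold change of -0.57 ± 0.05 (SE; edgeR adjusted p = 1.10e-08) had nearly the value of Ccnd1. The ratio of Ccnd1 to Ccnd3 in FPKM, fragments scaled by transcript length and library size, a unit that allows levels of different genes to be compared, was 3.09 ± 0.278 in control and 3.14 ± 0.177 in tranilast libraries (SD, n = 4).

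Ccnd2 (ENSMUSG00000000184), on the minus strand at chr6:127125162-127152193, encodes cyclin D2 and was the gene of the 10 that did not pass the test. It had 17.5, 19.9, 16.8 and 16.8 CPM in control and 17.5, 19.1, 19.9 and 17.8 CPM in tranilast libraries, so the groups overlapped almost throughout. The log2 fold change was 0.06, with a 95% interval from -0.10 to 0.23 (edgeR adjusted p = 0.550), and the exact permutation test gave p = 0.400. On the deposited FPKM the same gene looked different. It had 3.98, 3.01, 4.68 and 5.30 FPKM in control and 6.003, 7.70, 6.01 and 5.87 FPKM in tranilast libraries, with no overlap (exact two-sided permutation p = 0.0286). The limma test on log2(FPKM + 1) gave a log2 difference of 0.51 (adjusted p = 0.0102). FPKM is scaled by library size without TMM factors, and the median of all tested genes in that fit was 0.10, against 0.01 in the edgeR fit. Count and FPKM are related by the transcript length assigned to the gene in that library, and for Ccnd2 the length implied by the files ran from 3050 to 6331 bases in control and from 2590 to 3437 bases in tranilast libraries (exact permutation p = 0.143). Control replicate 2, with the lowest FPKM, had the longest implied length, close to the 6330 bases of the longest annotated Ccnd2 transcript, while the next longest, with a retained intron, has 3506 bases. For Ccnd1 the implied length was 3740 bases in all 8 libraries. The part of transcript use in the Ccnd2 difference was not tested, and single transcripts were not analysed here.

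**Figure D3:**
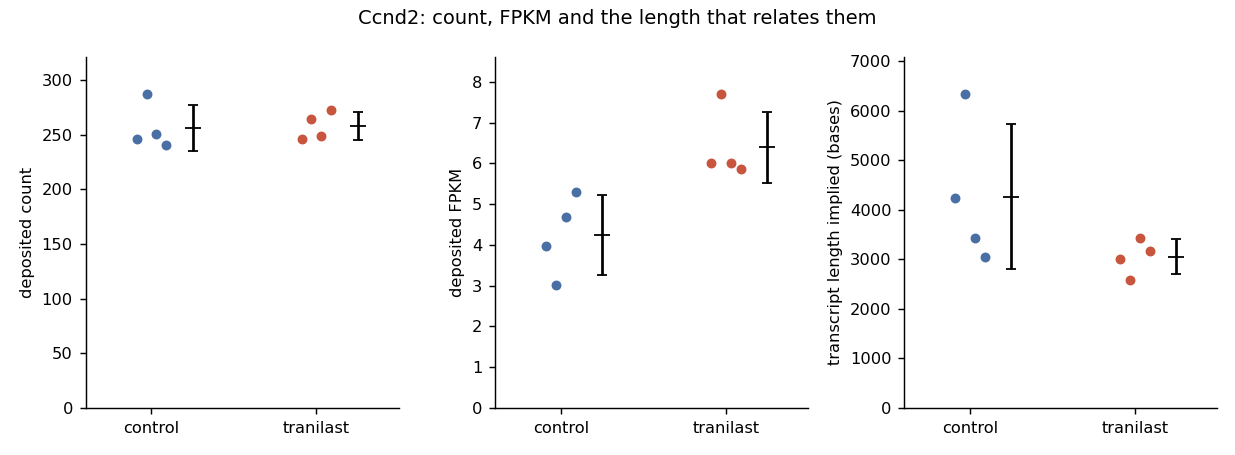
Ccnd2 in each library as the deposited count, the deposited FPKM and the transcript length in bases that relates them, with the mean and SD (n = 4 a group). Counts overlap between the groups at 241 to 287 and 246 to 273, FPKM separates them, and the implied length is most variable in the control libraries.

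Among the D-type cyclins Ccnd1 made up 74.3% ± 1.78 of the summed FPKM in control and 73.4% ± 1.17 in tranilast libraries, and Ccnd3 made up 24.1% ± 1.46 and 23.4% ± 0.922 (SD, n = 4). The share of Ccnd2 was 1.55% ± 0.365 in control and 3.15% ± 0.295 in tranilast libraries. The shares of Ccnd1 and of Ccnd3 overlapped between the groups, while the summed level of the 3 genes went from 273.8 ± 4.91 to 202.8 ± 9.44 FPKM.

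Cdk4 (ENSMUSG00000006728), on the plus strand at chr10:127063534-127067920, encodes the more abundant of the D-cyclin kinases. It had 369, 366, 375 and 375 CPM in control and 317, 307, 320 and 321 CPM in tranilast libraries, a small shift with a narrow spread in both groups. Its log2 fold change of -0.23 ± 0.03 (SE; edgeR adjusted p = 9.22e-07) was the smallest in size among the 9 genes that passed. With scaling by library size alone, which moved the median of all genes up by 0.12, it was -0.11 (edgeR adjusted p = 0.00144). On log2(FPKM + 0.1) it was -0.12 (limma adjusted p = 0.00232), in a fit where the median of all genes was 0.12. Cdk6 (ENSMUSG00000040274), on the plus strand at chr5:3341485-3531008, encodes the kinase that shares the D-type cyclins with CDK4 and is known for its role in blood cell lineages. It had 305, 280, 280 and 278 CPM in control and 178, 179, 184 and 181 CPM in tranilast libraries, with a wide gap between the groups. Its log2 fold change was -0.66 ± 0.03 (SE; edgeR adjusted p = 1.62e-11). The ratio of Cdk4 to Cdk6 in FPKM was 3.80 ± 0.281 in control and 4.96 ± 0.745 in tranilast libraries (SD, n = 4). The implied transcript length of Cdk6 varied from 4441 to 6059 bases between libraries, and in the tranilast libraries its FPKM (36.8 ± 5.16) spread more widely than its CPM (181 ± 2.87).

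The kinase genes are also where a promoter string recurred. RefSeq promoter windows of 250 bases before to 50 after a start were at hand for 7 of the 10 genes, 9 windows in all, on GRCm38.p6. No window was at hand for Ccnd1, Ccnd2 and Ccne2, so their promoters were not searched. The E-box CACGTG, a sequence read the same on both strands and known as the binding site of Myc with Max and of related factors, occurred in 3 of the 9 windows and in 7.15% of all 32851 windows. The Cdk4 window held it at 172, 118, 98 and 11 bases before the start, the Cdk6 window at 220 bases before, and a Cdkn2c window at 34 bases after. Window bases before the RefSeq start are shown for both kinase genes, on the plus strand and up to the next annotated exon, with each E-box in capitals. The Cdk4 stretch ends where the gene begins. The Cdk6 stretch lies inside the span of the gene, between annotated exons.
Cdk4, chr10:127063285-127063533: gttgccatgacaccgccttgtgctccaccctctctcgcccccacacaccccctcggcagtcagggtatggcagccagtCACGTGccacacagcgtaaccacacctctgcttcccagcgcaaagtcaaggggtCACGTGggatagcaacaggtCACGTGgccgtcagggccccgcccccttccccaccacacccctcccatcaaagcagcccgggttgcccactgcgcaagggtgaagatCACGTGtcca
Cdk6, chr5:3343643-3343731: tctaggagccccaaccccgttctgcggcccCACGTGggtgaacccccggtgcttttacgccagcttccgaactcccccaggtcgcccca

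The other strings searched on both strands were rarer in the 9 windows. The FOXO string GTAAACA occurred in 1 (Ccnd3, 243 bases before the start), against 3.65% of all windows. The E2F strings TTTCCCGC and TTTGGCGC, the CHR string TTTGAA, the CRE string TGACGTCA and the AP-1 strings TGACTCA and TGAGTCA occurred in 0, against 1.07%, 0.514%, 17.9%, 1.79% and 5.2% of all windows. The 9 windows had a median of 66.7% G and C, against 52.7% over all windows. String matches describe these letters alone and are no measure of binding.

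Ccne1 (ENSMUSG00000002068), on the minus strand at chr7:38097984-38107534, encodes cyclin E1. It had 37.8, 40.6, 36.0 and 39.7 CPM in control and 50.6, 48.0, 51.0 and 52.0 CPM in tranilast libraries, every tranilast library being above every control library. The group mean rose from 38.5 ± 2.05 to 50.4 ± 1.70 CPM (SD over 4 libraries), with a fitted log2 fold change of 0.39 ± 0.05 (SE; edgeR adjusted p = 6.40e-06). Ccne2 (ENSMUSG00000028212), on the plus strand at chr4:11191351-11204779, encodes cyclin E2. It had 96.5, 87.1, 88.6 and 90.7 CPM in control and 124, 116, 124 and 125 CPM in tranilast libraries. These groups were also apart, and the log2 fold change was 0.43 ± 0.04 (SE; edgeR adjusted p = 9.25e-08). The proportion of the genes overlapped between the groups, Ccne2 being 61.6% ± 1.91 of their summed FPKM in control and 62.4% ± 0.215 in tranilast libraries (SD, n = 4). The next tested gene before Ccne2, 16.97 kb away on the same strand, was Trp53inp1, a p53-induced gene. It had the highest log2 fold change of all tested genes, 4.90 ± 0.10 (SE; edgeR adjusted p = 7.84e-17), with a mean of 2.44 CPM in control and 72.9 CPM in tranilast libraries. Dpy19l4, the next tested gene after Ccne2, had a log2 fold change of 0.25 (edgeR adjusted p = 1.68e-04). Ints8, which overlaps Ccne2 on the opposite strand, had a log2 fold change of -0.06 and did not pass the test (edgeR adjusted p = 0.284).

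Cdkn2d (ENSMUSG00000096472), on the minus strand at chr9:21288410-21291407, encodes the INK4 inhibitor p19 and changed most of the 10. It had 30.3, 28.4, 31.0 and 32.1 CPM in control and 9.80, 10.9, 10.4 and 10.8 CPM in tranilast libraries. The groups were far apart, with 409 to 463 counts against 130 to 166. The mean was 2.90 times lower with tranilast, and the log2 fold change was -1.54 ± 0.08 (SE; edgeR adjusted p = 1.24e-11). It was the 1 gene of the 10 past the study's threshold of 1.5 in absolute log2 fold change, which 1.11% of all tested genes passed. Its 95% interval ran from -1.69 to -1.38, on both sides of that threshold, and with upper-quartile scaling, scaling by library size alone or FPKM it no longer passed it. Kri1, the nearest tested gene before it, 0.441 kb away on the same strand, had a log2 fold change of -0.36 ± 0.05 (SE; edgeR adjusted p = 4.82e-06). Slc44a2, the nearest after it, did not pass the test (log2 fold change 0.10, edgeR adjusted p = 0.0688). Of the 10 genes, flanking genes are named only for Ccne2 and Cdkn2d, outside the naming rule and with the values of all neighbours at hand.

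Cdkn2c (ENSMUSG00000028551), on the minus strand at chr4:109660876-109667189, encodes the INK4 inhibitor p18. It had 50.1, 49.95, 46.9 and 47.5 CPM in control and 29.3, 29.5, 31.4 and 34.5 CPM in tranilast libraries, with no overlap. Its log2 fold change was -0.64 ± 0.06 (SE; edgeR adjusted p = 4.94e-08). Cdkn1b (ENSMUSG00000003031), on the plus strand at chr6:134920401-134925513, encodes p27. It had 53.3, 44.3, 52.3 and 53.7 CPM in control and 33.6, 37.3, 38.3 and 41.7 CPM in tranilast libraries. Control replicate 2 was low and tranilast replicate 4 high, which brought the groups close to each other. Its log2 fold change was -0.43 ± 0.07 (SE; edgeR adjusted p = 4.41e-05). In FPKM the groups of Cdkn1b overlapped, with 14.6 in control replicate 2 and 15.6 in tranilast replicate 4 (exact two-sided permutation p = 0.0571). Within the summed FPKM of Cdkn1b, Cdkn2c and Cdkn2d, the share of Cdkn2d went from 38.2% ± 1.21 to 24.2% ± 0.888 (SD, n = 4). The share of Cdkn1b went from 29.0% ± 2.38 to 37.2% ± 0.598 and that of Cdkn2c from 32.8% ± 2.09 to 38.7% ± 0.790 (SD, n = 4). The implied transcript length of Cdkn2c was 2334 to 2417 bases in control and 2179 to 2324 bases in tranilast libraries, without overlap (exact two-sided permutation p = 0.0286, not adjusted for the 10 genes compared), and this length enters its FPKM and so these shares. Among Cdkn1b, Cdkn2c and Cdkn2d, Cdkn2d had the highest mean FPKM in control and the lowest in tranilast libraries. The CDK inhibitor gene Cdkn1a, which is not in this sum, stood far above them. Its mean was 195 FPKM in control and 268 FPKM in tranilast libraries. These levels are not TMM-scaled, and its log2 fold change in the edgeR fit was 0.29.

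Within a library, ratios of summed FPKM show how the families stood to each other. D-type over E-type cyclins was 5.66 ± 0.282 in control libraries, between 5.38 and 6.03, and 2.91 ± 0.236 in tranilast libraries, between 2.70 and 3.23. Cdk4 plus Cdk6 over the INK4 genes Cdkn2c plus Cdkn2d was 5.84 ± 0.152 in control and 9.28 ± 0.824 in tranilast libraries. E-type cyclins over Cdkn1b alone, without Cdkn1a, was 2.81 ± 0.321 in control and 5.05 ± 0.423 in tranilast libraries. The ratio to the INK4 genes also carries the implied length of Cdkn2c. None of these ratios overlapped between the groups, and since they are sums over chosen genes no test was applied. D-type cyclins over the sum of Cdkn1b, Cdkn2c and Cdkn2d, again without Cdkn1a, did overlap. The ratio was 4.35 to 4.80 in control and 4.63 to 5.99 in tranilast libraries. It does not stand for all CDK inhibitors, because Cdkn1a was above this sum and rose while the sum fell. Mean FPKM of Cdkn1a was 195 in control and 268 in tranilast libraries, against 59.8 and 37.4 for the sum. A ratio with Cdkn1a included was not computed.

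**Figure D4:**
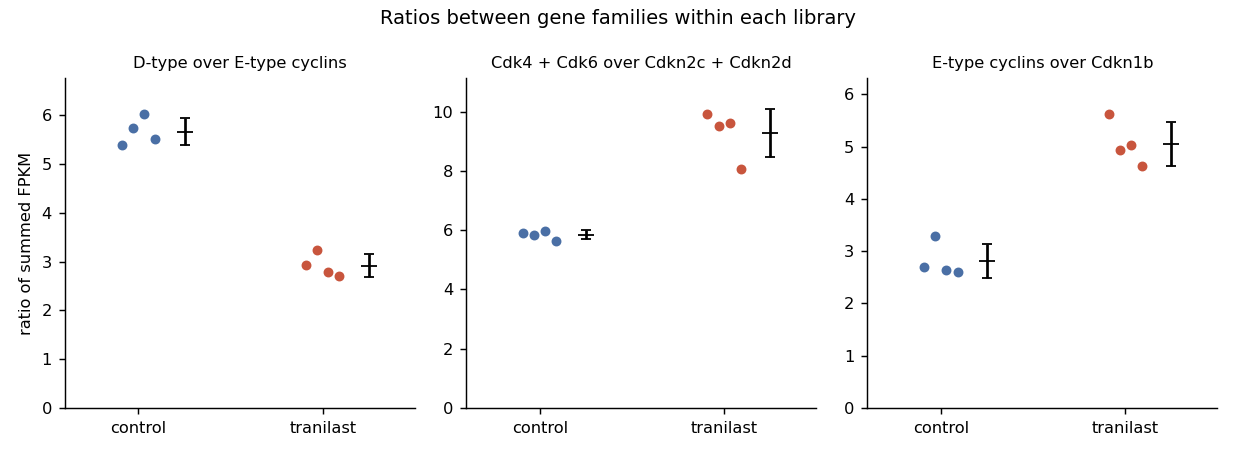
Ratios of summed FPKM between families of genes, computed within each library, with the mean and SD (n = 4 a group) and axes from 0. D-type over E-type cyclins is lower in the tranilast libraries, at 2.70 to 3.23 against 5.38 to 6.03, and both other ratios are higher.

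In order of mean FPKM the control libraries had Ccnd1 (203.5) and Cdk4 (196.0) at the top, and these overlapped. Ccnd3 (66.1), Cdk6 (51.8), Ccne2 (29.8) and Cdkn2d (22.8) followed, each apart from the next. Cdkn2c (19.6), Ccne1 (18.6) and Cdkn1b (17.4) were neighbours whose libraries overlapped, and Ccnd2 (4.24) was last. In tranilast libraries Cdk4 (179.8) stood above Ccnd1 (148.9) without overlap. Ccnd3 (47.5) came next, then Ccne2 (43.6) and Cdk6 (36.8), which overlapped. Ccne1 (26.2) stood above Cdkn2c (14.5) and Cdkn1b (13.9), which overlapped, and Cdkn2d (9.03) and Ccnd2 (6.40) were lowest.

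Several of these genes share exonic bases with a gene on the opposite strand, and the sources used here do not say whether counting used strand. Ccnd1 shares 1100 bases with LTO1, which had 123 to 233 counts in a library, far under the Ccnd1 counts of 6477 and above. Cdk4 shares 641 bases with Tspan31, which had 869 to 1161 counts and a log2 fold change of 0.22, opposite in sign to Cdk4. Ccne2 shares 609 bases with Ints8 and Ccnd3 shares 361 bases with Bysl, which had 720 to 1049 counts and a log2 fold change of -0.24. Ccnd2 and Cdk6 share bases with annotated antisense genes that were not analysed here. Whether reads of the shared bases were told apart is therefore not known, and the part of the partner gene was not tested.

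The partners, regulators and targets of the 10 genes were followed in 11 lists of 70 genes, 66 of them tested, of which 17 rose, 30 fell and 19 did not pass. Over all tested genes 28.2% rose and 28.8% fell, and the counts of each list below stand beside these shares. The median log2 fold change over the 66 was -0.07, against 0.01 over all tested genes. With scaling by library size alone 24 of the 66 rose and 16 fell, while over all tested genes the calls went from 3039 higher and 3104 lower to 4613 higher and 1893 lower.

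Of the other CDK inhibitors only Cdkn1a was tested. Cdkn1a, which encodes p21 and is a classical p53 target, rose from 361 ± 25.1 to 442 ± 23.9 CPM (SD, n = 4; log2 fold change 0.29, edgeR adjusted p = 1.86e-05). Cdkn2a and Cdkn2b, which encode the INK4 inhibitors p16 and p15, had 0 counts in all 8 libraries, below the floor of 3 counts, and Cdkn1c had 0 to 1. Among the pocket proteins, the targets of the G1 kinases, Rb1 (0.64) and Rbl2 (0.77) rose and Rbl1 (-0.15) fell in log2 fold change, with a median of 0.64, and the call for Rbl1 was lost with scaling by library size alone and on FPKM. Rb1 went from 44.5 ± 2.98 to 69.2 ± 6.15 CPM and Rbl2 from 39.0 ± 2.62 to 66.7 ± 2.10 CPM (SD, n = 4). Rbl2 encodes p130, the relative that is most abundant in resting cells, and Rbl1 encodes p107, which is most abundant in cycling cells.

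Of the 10 E2F and DP genes, which encode the transcription factors held by the pocket proteins, 5 rose, 4 fell and 1 did not pass, with a median log2 fold change of 0.04. The activator E2f1 (log2 fold change 0.62) and the dimer partner Tfdp2 (0.72) rose, while the repressor E2f4 (-0.42) fell. Of the MuvB core and its partners, which act with pocket proteins in resting cells and with Foxm1 and Mybl2 in cycling cells, 1 of 7 rose and 4 fell. Foxm1, a driver of mitotic genes (log2 fold change -0.91), and the core subunit Lin9 (-0.43) fell, and Lin37 (0.35) rose, the last call resting on tranilast replicate 2 (adjusted p = 0.0845 without it).

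Of CDK2 and the CDK-activating kinase, 1 of 6 rose and 3 fell. Ccna2, the cyclin A2 gene that follows the E-type cyclins as partner of CDK2 (log2 fold change -1.25), and the phosphatase gene Cdc25a (-0.19) fell, the latter not with upper-quartile or library-size scaling or on FPKM. The call for Mnat1, an assembly factor of the CDK-activating kinase (log2 fold change 0.17, edgeR adjusted p = 0.0477), was lost in 12 of 18 alternatives. Cdk2 itself, chosen for naming after its value was seen, did not pass the test, with a log2 fold change of -0.07. All 3 genes of the chaperone system that folds CDK4 and CDK6 fell, with log2 fold changes of -0.55 for Hsp90ab1, -0.54 for Hsp90aa1 and -0.20 for the kinase-specific cochaperone Cdc37, whose call was lost on FPKM (log2 difference -0.04).

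Of the 8 genes for turnover of p27, 2 rose, 3 fell and 3 did not pass. Ubac1, a subunit of the ligase that degrades p27 in G1, rose by 0.38 on the log2 scale, and Cks1b (-0.27) and Skp1 (-0.16) of the SCF ligase fell, Skp1 again not with upper-quartile or library-size scaling or on FPKM. Of the 7 genes for cyclin D and cyclin E turnover, 1 rose, 1 fell and 5 did not pass, and the one that rose, Fbxo31 (0.28), encodes a ligase subunit that acts on cyclin D1. The median log2 fold change of both turnover lists was -0.06. It became positive with upper-quartile scaling and with scaling by library size alone, which also raise the median of all genes, and relative to that median it was -0.06 for p27 turnover and -0.07 for cyclin turnover under each of these 3 scalings.

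Of 11 transcription factors known to act on cyclin D or inhibitor genes, 4 rose, 3 fell and 4 did not pass. Myc, which activates the Ccnd2 and Cdk4 genes, had the lowest log2 fold change of this list, -1.62 ± 0.31 (SE; edgeR adjusted p = 2.55e-04), on only 25 to 45 counts in control and 7 to 12 in tranilast libraries. Foxo4 rose by 0.62 and Foxo1 by 0.55 on the log2 scale, both being factors known to activate Cdkn1b, which fell. Of 4 tested receptors and ligands for macrophage growth factors 3 fell and 1 did not pass, but 1 fell with upper-quartile scaling and 0 fell with scaling by library size alone. Il34 was at 0 to 1 counts. Csf1r, the receptor for colony-stimulating factor 1, had a log2 fold change of -0.16. It did not pass with scaling by library size alone (edgeR adjusted p = 0.104). Neither did it pass on log2(FPKM + 0.1), at 0.0071 (limma adjusted p = 0.875), where the median of all genes was 0.12. Of 6 proliferation markers 5 fell and 1 did not pass, with a median of -0.86. With upper-quartile scaling 4 fell and 1 rose, and so it was with scaling by library size alone. Named after their values were seen, Mcm2 had a log2 fold change of -0.08 with overlapping groups, and Pcna, at 0.02, did not pass. The mitotic cyclin B1 gene Ccnb1 (log2 fold change -1.95), Mki67 (-0.97) and Top2a (-0.91) had the largest falls, while the E-type cyclin genes rose in the same libraries.

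**Figure D5:**
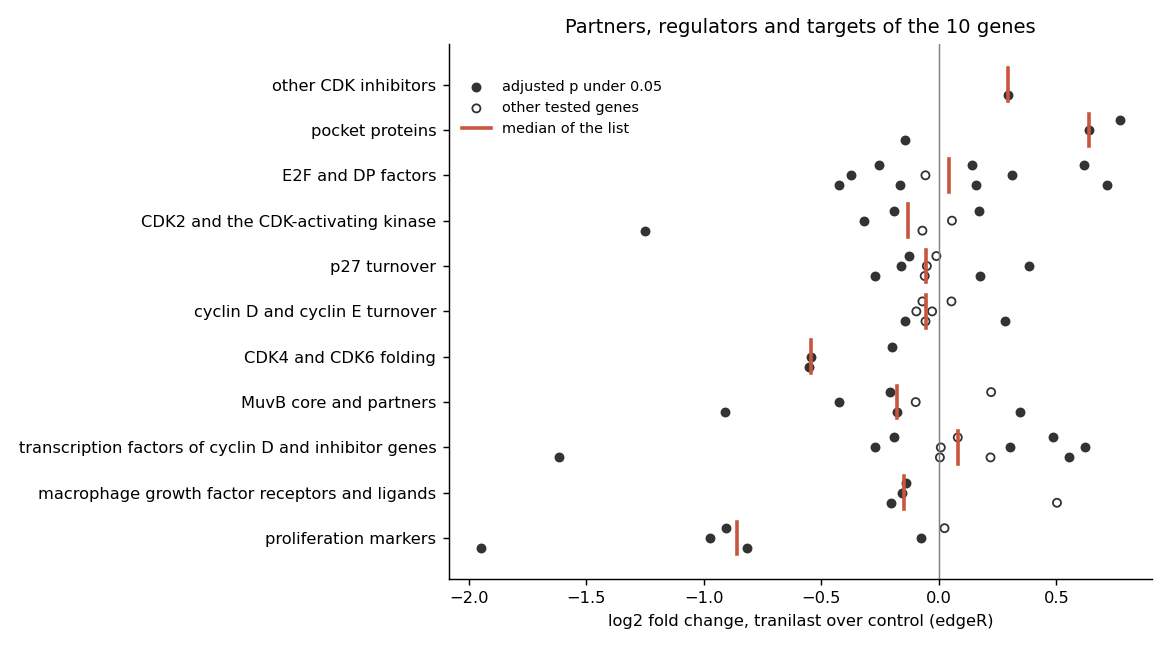
Fold changes (log2, tranilast over control) of the 66 tested partner, regulator and target genes in 11 lists, filled where the edgeR adjusted p is under 0.05, with the median of each list as a vertical line. Most proliferation markers and the CDK4 and CDK6 folding genes lie to the left and pocket proteins mostly to the right.

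The genes whose pattern over the 8 libraries was most like Ccne2, the gene of the 10 with the highest fold change, were Cdip1 (Pearson r = 0.998), Ero1b (0.993) and D630023F18Rik (0.993). Those most like Cdkn2d, the lowest, were Anln (0.999), Gm10184 (0.998) and Tpx2 (0.998). These r values mostly reflect the difference between the groups, which all the points share. With group means removed they were 0.952, 0.874 and 0.870 for Ccne2 and 0.761, 0.755 and 0.695 for Cdkn2d, and the genes were picked from the whole table for their likeness.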

How the data were processed

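Poly-A enriched paired-end libraries were prepared with a TruSeq kit; the methods name a HiSeq X-ten instrument and the labels a Novaseq6000. The authors deposited estimated counts per gene, mostly whole numbers (89.5% to 91.2% of the values of genes with any count), and FPKM per gene for each library. The aligner, counter, build and annotation are not given in the sources used here. Groups came from the sample titles.

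Counts were rounded and fitted over the whole table with edgeR 4.0.16 (TMM factors, filterByExpr, quasi-likelihood test, R 4.3.3), with Benjamini-Hochberg adjustment over 10770 genes. Only the 8 control and tranilast libraries entered, with no covariate. CPM are TMM-scaled, and exact permutation tests used log2(CPM + 0.1), log2 FPKM or the implied transcript length. Alternatives were DESeq2 1.42.0, limma 3.58.1 (voom, and log2 of FPKM plus 0.1 or 1), other scalings and filters, a replicate block, and leaving out each library. The biological coefficient of variation was 5.09%, and principal component 1 (60.7% of variance) separated the groups.

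Positions are from GENCODE M21 (GRCm38) and promoter windows from RefSeq (GRCm38.p6). The implied length is the count divided by FPKM and the library total. All 10 genes are named, then up to 3 genes per list that were called without overlap between groups, those with the largest change, untested genes with their counts, and the 3 genes most like the highest and the lowest member. The members and lists were chosen with earlier results of these data known. Floors of 3 counts cover counting error only.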

Additional observations from a re-analysis of the deposited data

Results flagged for a closer look

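In 9 of 94 groups of 4 libraries the highest or lowest library stood apart from the others by Dixon's criterion. Chance meets this criterion in about 1 in 20 groups. Each group holds a named gene's log2 CPM or FPKM in control or in tranilast libraries, so groups of the same gene are not independent. Of the 10 G1 genes, Ccnd2 had 7.70 FPKM in tranilast replicate 2, against 5.87 to 6.01 in the others, and its CPM was not set apart there. Ccne2 had 6.86 log2 CPM in tranilast replicate 2, below the 6.95 to 6.97 of the others and still above every control library. Cdk4 had 199.8 FPKM in control replicate 2, against 194.2 to 195.2. Cdk6 had 8.26 log2 CPM in control replicate 1, against 8.12 to 8.13. Cdkn1b had 5.47 log2 CPM in control replicate 2, the nearest control library to the tranilast libraries, against 5.71 to 5.75. Among the list genes Hsp90aa1 had 9.79 log2 CPM in tranilast replicate 3 (others 9.75 to 9.76) and Mki67 had 10.53 in control replicate 2 (others 10.65 to 10.67). Mnat1 had 4.24 log2 CPM in control replicate 4 (others 4.34 to 4.35) and Rbl1 had 7.82 in control replicate 1 (others 7.74 to 7.75).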

How the results depend on the processing

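Of the 10 G1 genes, 9 kept their direction and call in all 18 alternatives, and 178 of 180 values kept both. The exception was Ccnd2, called higher only with limma on FPKM, with log2 differences of 0.60 (log2(FPKM + 0.1)) and 0.51 (log2(FPKM + 1)). The count past the threshold of 1.5 in absolute log2 fold change went from 1 to 0 with library size only, with upper-quartile factors and with both FPKM settings, and to 3 when the threshold was read as a 1.5-fold change. Of the list genes 16 were called lower with library size only, against 30. Csf1r was at 0.0071, and not called, with both FPKM settings (pseudocounts 0.1 and 1). The median of all tested genes in those fits was 0.12 and 0.10. Leaving out each library in turn left 2 of the 10 genes higher, 7 lower and 1 past the threshold, and gave 15 to 17 list genes higher and 24 to 29 lower. The log2 fold change of Cdkn2d ran from -1.57 to -1.25 over all alternatives and from -1.568 to -1.501 with a library left out. Other named genes kept their call in 456 of 485 values. Same-numbered control and tranilast libraries shared little of their deviation from the group means (correlations of -0.06, -0.04, 0.01 and 0.11). Low values here cannot show whether the libraries were paired by design. With the replicate block 2 of the 10 genes were higher and 7 lower, 1 was past the threshold, 16 list genes were higher and 29 lower, and 6009 genes were called in place of 6143. The cause of these shifts was not tested. Myc rests on 7 to 45 counts a library, and Cdkn2a and Cdkn2b could not be judged below 3 counts.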

Other observations

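The INK4 genes Cdkn2a and Cdkn2b, which lie side by side at chr4:89274471-89294653 and chr4:89306299-89311039 of GRCm38, had 0 counts in every library, whereas the related genes Cdkn2c and Cdkn2d on other stretches of the genome had 393 to 719 and 130 to 463 counts. Mtap, the next gene before them in the deposited table, ends 93.39 kb from Cdkn2a and had 1682 to 1783 counts in control and 1191 to 1428 counts in tranilast libraries. On the far side Dmrta1, 368.40 kb from Cdkn2b, was also at 0. These neighbours were chosen after their values were seen, and no cause was examined.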
